A study of Mus musculus with 8 samples.

Results

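Myeloid cells that carried transcripts of both Retnla and Ear2 were described in the sciatic nerve of mice 1 week after surgery. Members were the cell barcodes of both 1-week libraries with at least 500 genes, under 10% mitochondrial UMIs (unique molecular identifiers, each the count of 1 captured transcript), at least 5 UMIs of Retnla and Ear2 together with at least 1 of each, and at most 2 UMIs of Cd163, Lyve1 and Cbr2 together, which mark resident macrophages of the nerve. This rule kept 121 of the 3541 barcodes that passed the limits on genes and mitochondrial UMIs, out of 4391 deposited at 1 week and 9133 in the 4 mouse libraries of the series. Of these members 21 were in the library of PSNL and sham nerves and 100 in the library of crush and sham nerves.

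All mice were C57BL/6JolaHsd, male and female, bought as young adults and without a transgene, and no age at surgery is stated in the sources used here. In PSNL (partial sciatic nerve ligation) a suture was tied tightly around part of the sciatic nerve, which leaves a lasting injury. In crush the whole nerve was pressed with forceps and can regrow, and in sham surgery it was exposed and not touched. After perfusion with saline, live CD45+/CD11b+ cells were sorted from a short piece of nerve around the site, with Ly6G+ neutrophils left out at 1 week, and each nerve sample was marked with a hashtag, a DNA-tagged antibody, before pooling. At 1 week there were 6 hashtag samples: a PSNL female, a PSNL male and a sham female in the first library, and a crush female, a crush male and a sham male in the second. At 15 weeks there were 7, from 4 PSNL and 3 crush nerves, with no sham. How many mice stand behind a hashtag sample is not stated in the sources used here, so p-values measure the spread between these samples. The PSNL and the crush samples were never in the same library, so PSNL against crush and 1 library against the other cannot be told apart.

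Retnla encodes RELMα, a small secreted protein that macrophages make in response to interleukin 4 and interleukin 13, which act through the transcription factor STAT6. Ear2 encodes a secreted ribonuclease of the eosinophil-associated family that some macrophages also express. Lyz1 encodes a lysozyme that degrades bacterial cell walls and Fn1 encodes fibronectin, a protein of the extracellular matrix. In the serous cavities of mice, RELMα and the adhesion receptor CD226 are known from macrophages that descend from monocytes and carry MHC class II.

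The promoters of Retnla, Ear2 and Lyz1, which define or mark the members, are given to show how differently they are built around their starts. No promoter window of Fn1 was in the reference used here. Each runs from 250 bases before to 50 bases after the start of the gene in RefSeq for the build GRCm38.p6, 5′ to 3′ on the strand of the gene, with any match to the STAT6 motif (TTC and GAA with 4 free bases between them) in capitals.
Retnla, chr16:48842359-48842658, plus strand: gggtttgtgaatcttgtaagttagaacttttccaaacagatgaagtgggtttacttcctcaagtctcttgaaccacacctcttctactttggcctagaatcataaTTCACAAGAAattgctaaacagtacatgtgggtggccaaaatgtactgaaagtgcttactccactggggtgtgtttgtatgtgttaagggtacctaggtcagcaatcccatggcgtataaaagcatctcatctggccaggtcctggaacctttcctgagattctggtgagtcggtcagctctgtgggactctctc
Ear2, chr14:44102404-44102703, plus strand: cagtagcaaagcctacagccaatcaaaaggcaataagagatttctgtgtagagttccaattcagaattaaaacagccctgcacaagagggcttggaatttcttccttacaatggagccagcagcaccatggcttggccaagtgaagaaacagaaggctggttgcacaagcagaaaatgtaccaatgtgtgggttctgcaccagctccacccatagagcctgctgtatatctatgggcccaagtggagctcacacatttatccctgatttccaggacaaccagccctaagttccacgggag
Lyz1, chr10:117292819-117293118, minus strand: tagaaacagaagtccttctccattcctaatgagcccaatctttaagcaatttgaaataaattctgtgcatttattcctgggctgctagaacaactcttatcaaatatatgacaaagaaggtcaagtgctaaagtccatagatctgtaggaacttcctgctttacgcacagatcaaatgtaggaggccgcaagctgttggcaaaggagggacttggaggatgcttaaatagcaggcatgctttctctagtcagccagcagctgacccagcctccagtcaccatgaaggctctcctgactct
The Retnla window held the 1 match, TTCACAAGAA at bases 106 to 115, which starts 145 bases before the gene's start (offset -145). The motif reads the same way on both strands, and it was found in 6.99% of 27025 mouse promoter windows of this length. The form with 3 free bases between TTC and GAA, which other STAT factors bind, was in 8.47% of the windows and in none of those printed. The motif TTGCNNAA of C/EBP factors was in 10.8% of the windows and was found in all 3 of those printed, at bases 117 to 124 of Retnla, 161 to 168 of Ear2 and, on the opposite strand, 42 to 49 of Lyz1, and it does not overlap the STAT6 match. The purine-rich motif GAGGAAGT of PU.1 was in 3.28% of windows and was found in that of Retnla only, on the opposite strand at bases 53 to 60. These matches are letters in a sequence, and binding was not measured.

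In the gene annotation for GRCm38 the genes lie at chr16:48842551-48844461 (Retnla), chr14:44102654-44103534 (Ear2), chr10:117287797-117292868 (Lyz1) and chr1:71585520-71653200 (Fn1). Ear2 belongs to a family of near-identical copies: of 410 windows of 91 bases in the last 500 bases of its transcript, 38 (9.27%) also occur in Ear1, Ear10 or the pseudogene Ear-ps2, and 14 (3.42%) of those of Lyz1 occur in Lyz2. Reads from such stretches can be split between copies, so Ear2 and Lyz1 levels carry that uncertainty. No window of Retnla or Fn1 was shared.

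Which values chose the members is given here as a description, with no test. In the PSNL and sham library the members held 1 to 222 UMIs of Retnla (median 29) and 1 to 6 of Ear2 (median 1), and 11 of the 21 members had a single Ear2 UMI. In the crush and sham library they held 1 to 502 UMIs of Retnla (median 56.5) and 1 to 64 of Ear2 (median 3), and 25 of the 100 had a single Ear2 UMI. Few barcodes were near the limit of 5 UMIs. Just inside it, at 5 or 6 UMIs, lay 2 barcodes in each library, against 6 (PSNL and sham) and 2 (crush and sham) just outside, at 3 or 4 UMIs. In the PSNL and sham library the 2 just inside had 381 CPM of Fn1 (UMIs of a gene per 1000000 UMIs, summed over a set of barcodes) and the 6 just outside 693 CPM. In the crush and sham library these levels of Fn1 were 1038 CPM just inside and 2739 CPM just outside. In the PSNL and sham library 13 of the 21 members had 20 UMIs or more, against 83 of 100 in the crush and sham library. The limit on Cd163, Lyve1 and Cbr2 removed 6 barcodes of the PSNL and sham library and 11 of the crush and sham library that met the rest of the rule. A further 46 barcodes of the PSNL and sham library and 62 of the crush and sham library had at least 5 UMIs of Retnla and met the other limits but had no Ear2 UMI. The 46, against 21 members of that library, had 4695 CPM of Retnla, 1394 of Fn1, 303 of Lpl and 129 of Lyz1, and the 62 had 8463, 1324, 826 and 181 CPM of these genes.

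Free RNA in droplets gives single UMIs in cells that do not make a transcript, so the shares of barcodes with a UMI are given beside those of neutrophil barcodes (at least 20 UMIs of S100a8 and S100a9), which should lack these genes. Retnla was seen in 7.17% of the other barcodes of the PSNL and sham library and in 10.4% of its 566 neutrophil barcodes, and Ear2 in 3.13% and 3.71%. In the crush and sham library Retnla was seen in 13.1% of the other barcodes and 10.5% of 57 neutrophil barcodes, and Ear2 in 4.40% and 3.51%. These shares outside the members lie close to each other. The neutrophil barcodes left out members, of which 11 in the PSNL and sham library and 4 in the crush and sham library met the neutrophil rule. Of the 566, 278 carried several hashtags, so a share of free RNA alone cannot be read from them. Fn1 was seen in all 21 members of the PSNL and sham library, in 62.4% of its other barcodes and in 49.1% of its neutrophil barcodes, so a UMI of Fn1 was common outside the members there. In the crush and sham library Fn1 was seen in 97 of the 100 members (97.0%), 23.7% of other barcodes and 14.0% of neutrophil barcodes. Lyz1 was seen in 24.0% of the members of that library, in 2.69% of other barcodes and in none of the 57 neutrophil barcodes, so most members carried no Lyz1 UMI. The members were deeper than the rest: their median was 11999 UMIs against 5166 in the PSNL and sham library, and 11110 against 4857 UMIs in the crush and sham library. Their median share of mitochondrial UMIs was 5.09% against 2.32% in the first and 3.80% against 3.18% in the second. Gm42418, a transcript that overlaps ribosomal RNA, took 22.7% of the members' UMIs against 16.8% in the first library and 19.1% against 12.8% in the second. The part of depth and of these signs of RNA quality in the results was not tested.

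The members of the PSNL and sham library stood apart, and many of those with several hashtags went against the label of the cell type. Values are therefore given by library and by number of hashtags. Of its 21 members, 17 (81.0%) carried several hashtags, against 29.1% of its other barcodes, and 11 of these 17 also met the rule for neutrophil barcodes. Summed over these 17, S100a8 was at 3832 CPM, and none of the 4 members with a single hashtag had a UMI of it. Fn1 was at 1517 CPM in the 17 and at 1706 CPM in the 4, against 2000 CPM in other barcodes with a single hashtag. Most of those other barcodes were of PSNL nerves, while 3 of the 4 members were of the sham female. Within the sham female, Fn1 was higher in members than in other barcodes (values below), so the comparison over this library mixes surgeries. Cd226 was at 21.8 CPM in the 17 and at 109 CPM in the 4, against 1.67 CPM in the other barcodes with a single hashtag. In the crush and sham library 37 of the 100 members carried several hashtags, against 26.2% of its other barcodes, and 4 of the 37 met the neutrophil rule. Its 63 members with a single hashtag had 2964 CPM of Fn1, 373 CPM of Lyz1 and 126 CPM of Cd226, and its 37 with several had 1552, 191 and 61.5 CPM of the same genes. The 20 genes named below as higher in crush members were compared with all other barcodes of the library, at a log2 of at least 1. In the PSNL and sham library 8 were higher in the 4 single-hashtag members and 4 in the 17 others. In the crush and sham library 20 were higher in the single-hashtag members and 17 in those with several. The other barcodes of the PSNL and sham library were mostly of PSNL nerves, and the part of this in the counts was not tested. Barcodes with several hashtags belong to no surgery here and enter no comparison of samples. The part of droplets with more than 1 cell in these values was not tested.

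Among barcodes with a single hashtag, members made up much less of PSNL nerves than of crush or sham nerves. They were 0 of 532 barcodes in the PSNL female (exact 95% interval 0 to 0.691%, where a count of 3 would be 0.564%) and 1 of 874 in the PSNL male (0.114%). In crush they were 37 of 332 barcodes in the female (11.1%, exact 95% interval 7.97 to 15.0%) and 19 of 604 in the male (3.15%, 1.90 to 4.87%). In sham they were 3 of 63 barcodes in the female (4.76%, 0.993 to 13.3%) and 7 of 106 in the male (6.60%, 2.70 to 13.1%). Intervals cover counting error only. Both PSNL samples lay below both sham and both crush samples, and the sham samples lay between the 2 crush samples.

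**Figure D1:**
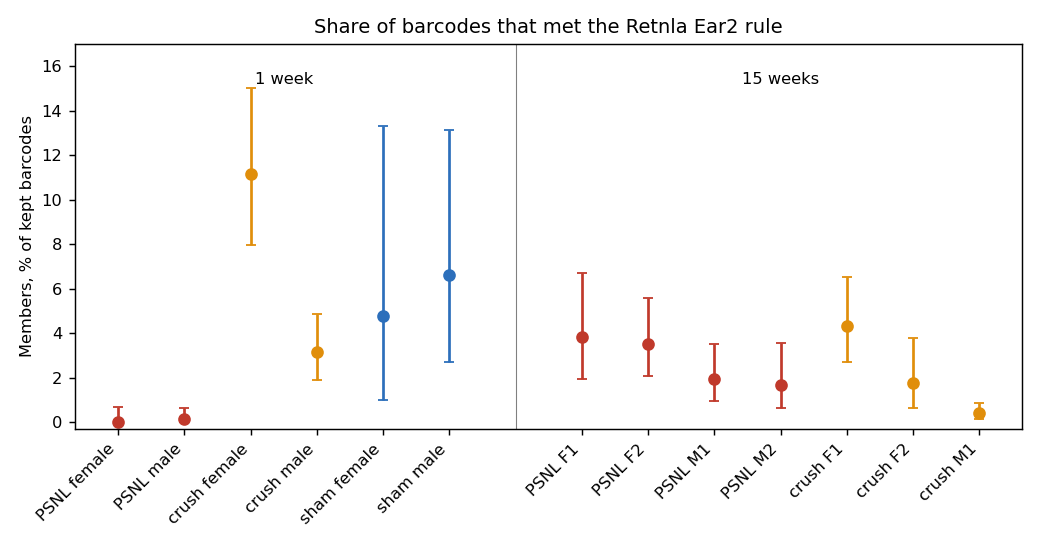
Share of kept barcodes with a single hashtag that met the Retnla and Ear2 rule (y axis, %), for each hashtag sample at 1 week (left) and 15 weeks (right), with exact 95% intervals as bars. The PSNL samples at 1 week sit at 0 and 0.114%, below the crush (11.1 and 3.15%) and sham samples (4.76 and 6.60%), whereas at 15 weeks PSNL and crush samples overlap.

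The mean share was 0.0572% in PSNL and 5.68% in sham, a difference of -5.63 percentage points, and 0.0572% against 7.15% in crush, a difference of -7.09 points. With 2 samples a group a two-sided exact permutation test cannot go below 0.333, and it gave 0.333 for both. The 7.15% in crush and 5.68% in sham differed by 1.46 points (exact permutation p = 1), and the sign turned without the crush female (-2.54 points), so no order of crush and sham can be read from these samples. Within the first library, where PSNL and sham nerves were run together, the PSNL samples had 0 and 0.114% and the sham female 4.76%. Within the second, the crush samples had 11.1 and 3.15% and the sham male 6.60%. Neutrophil barcodes made up 28.4 and 15.4% of the PSNL, 1.81 and 3.31% of the crush and 1.59 and 10.4% of the sham samples (female and male in each), which lowers the share of every other cell. Without neutrophil barcodes the members were 0 of 381 and 1 of 739 in PSNL, and the difference from sham was -6.04 points. When each barcode was given to its highest hashtag, which takes in those with several, PSNL had 5 of 757 (0.661%) and 12 of 1262 (0.951%), crush 11.2 and 4.65%, and sham 4.94 and 7.14%. When barcodes were thinned to 1500 UMIs each, to make depths equal, the mean shares were 0% in PSNL, 3.41% in crush and 1.56% in sham, since the rule asks for UMIs and thinning removes them. PSNL then had 0 of 463 and 0 of 805 barcodes and the sham female of the same library 0 of 57 (which allows up to 5.26%), so no difference was detectable within that library at this depth (exact permutation p = 1 over both libraries).

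At 15 weeks, when no sham nerve was taken, the same rule found 48 members in the PSNL and 36 in the crush library. In PSNL they were 11 of 289 barcodes (3.81%) and 17 of 483 (3.52%) in the females and 10 of 521 (1.92%) and 6 of 362 (1.66%) in the males. In crush they were 21 of 487 (4.31%) and 6 of 340 (1.76%) in the females and 6 of 1556 (0.386%) in the male. The PSNL and crush samples overlapped at this time.

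Which other genes the 1-week members carried was described in the crush female (37 members) and the crush male (19), the samples with at least 10 members. Genes with at least 10 CPM were called when both samples' members lay on the same side of both samples' other barcodes and the log2 ratio of mean CPM, with 1 CPM added, was at least 1 in size. This is a description, since the same barcodes were chosen by their transcripts. Of 7995 genes, 451 (5.64%) were higher and 1248 (15.6%) lower in members. The 20 genes with the largest ratios at a mean of at least 100 CPM, leaving out the genes of the rule, are given by their roles.

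Lyz1 was at 208 and 868 CPM in members of the crush female and male, against 38.6 and 3.94 CPM in the other barcodes of these samples. Its log2 ratio of 4.60 was the highest of the 20, and the crush male members lay well above those of the female. Fn1 was at 3372 and 2418 CPM in members, against 528 and 171 CPM in other barcodes, a log2 ratio of 3.05. Lpl, which encodes lipoprotein lipase, the enzyme that frees fatty acids from circulating fat, was at 2296 and 2034 CPM in members, against 458 and 136 CPM in other barcodes, a log2 ratio of 2.86. The sham members, which the description had left out, had these 3 genes on the same side. Fn1 was at 1635 and 2457 CPM in the 3 and 7 members of the sham female and male, against 395 and 272 CPM in their other barcodes, and Lpl at 1513 and 2790 CPM, against 220 and 297 CPM. Lyz1 was at 204 and 71.3 CPM in sham members, against 44.9 and 27.0 CPM in the other barcodes.

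Receptors and adhesion molecules made up a second group. Cd226 was at 88.1 and 203 CPM in members of the crush female and male, against 11.4 and 8.48 CPM in other barcodes (log2 ratio 3.75), and at 123 and 127 CPM in sham members, against 18.0 and 27.0 CPM. All 4 samples had it higher in members. Cd2, an adhesion receptor best known from T cells, was at 153 and 117 CPM in crush members, against 9.08 and 4.85 CPM in other barcodes (log2 ratio 4.09). In the 3 members of the sham female it was at 0, and in the 7 of the sham male at 71.3 CPM. No marker of T, B or NK cells fixed for this purpose (10 genes, among them Cd3e, Cd79a and Nkg7, summed 43.2 and 44.2 CPM in the other barcodes) had a UMI in the members of either crush sample. Plaur, the urokinase receptor (log2 ratio 2.55), and Pilra, an inhibitory receptor of myeloid cells (2.78), belonged to the same group.

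Of the genes for secreted proteins and proteases, Mmp19, a metalloproteinase of the matrix, was at 412 and 389 CPM in members of the crush female and male, against 50.0 and 16.1 CPM in other barcodes (log2 ratio 3.56). Ccl2, which attracts monocytes through the receptor Ccr2, was at 140 and 237 CPM in these members, against 28.4 and 18.2 CPM (log2 ratio 2.96). F10, which encodes coagulation factor X, was at 116 and 142 CPM, against 19.9 and 9.69 CPM (log2 ratio 3.04). All 3 were well apart from the other barcodes in both crush samples. In the 3 members of the sham female Ccl2 and F10 had no UMI, against 44.9 and 27.0 CPM in its other barcodes, and Dok2 was at 81.8 CPM, against 121 CPM. The signalling genes were Dok2, an adaptor of tyrosine kinase signalling (275 and 337 CPM in members, against 31.8 and 20.9 CPM), Phlda1 (log2 ratio 3.98), the small GTPase Rras2 (3.17), the transcription factor Egr2 (3.05) and Socs6, a suppressor of cytokine signalling (2.76). Capg, which caps actin filaments, was at 614 and 864 CPM in members, against 149 and 83.9 CPM in other barcodes. The actin linker Pdlim1 (log2 ratio 2.82), Mcub of the mitochondrial calcium channel (2.53), the inositol transporter Slc5a3 (2.60) and the unnamed Gm12840 (3.64) completed the 20.

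The 10 genes with the lowest ratios included genes of neutrophils and dendritic cells and Ly6c2. S100a8, Retnlg, another RELM family gene that neutrophils express, and Ccl5 had no UMI in the members of either crush sample, against 406 and 566 CPM of S100a8, 262 and 625 CPM of Retnlg and 292 and 181 CPM of Ccl5 in their other barcodes. S100a9 was at 0 and 4.32 CPM, against 516 and 774 CPM. The summed level of 11 neutrophil markers was 8.59 and 4.32 CPM in the crush members, against 1278 and 2109 CPM in the other barcodes. Ly6c2, which marks recruited monocytes, was at 2.15 and 4.32 CPM in members, against 51.7 and 300 CPM, and Flt3, a receptor of dendritic cells, at 4.30 and 0 CPM, against 119 and 105 CPM. Ccl22, Jaml, H2-Oa and Tbc1d4 completed the 10 named lower genes. Of 12 dendritic cell genes 11 were lower and 1, the transcription factor Batf3, was higher, and at 15 weeks 4 of 8 were lower and Batf3 again higher. Over all genes 5.64% were higher and 15.6% lower at 1 week, and 10.3% and 14.2% at 15 weeks. The 18 monocyte genes summed to 14913 and 18377 CPM in members of the crush female and male, against 10846 and 13686 CPM in other barcodes. Lyz2 alone held 6525 and 7911 CPM of this in members, against 3654 and 3283 CPM in other barcodes. By gene 3 of the 18 were higher and 6 lower (median log2 ratio -0.05), so the monocyte genes did not move as 1 group. The eosinophil markers Epx, Prg2, Prg3, Il5ra and Ccr3 had no UMI in either sample's members, and of 7 such genes 1 had a UMI in each (Siglecf in the female and Alox15 in the male, at 4.30 and 4.32 CPM, against a sum of 64.2 and 85.1 CPM in other barcodes). Epx and Prg3 had no UMI in the other barcodes of these samples either.

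Whether these genes also differ in samples that the 1-week description did not use was tested at 15 weeks. Members there were again chosen by their own transcripts. The p-values therefore measure how steady a difference was over samples, and they do not test the choice of members. The same rule chose members there, summed counts of members and other barcodes were paired within the 4 hashtag samples with at least 10 members (PSNL F1, F2 and M1 and crush F1), and edgeR's quasi-likelihood test was run over 9782 genes with the hashtag sample as a term. At an adjusted p (Benjamini-Hochberg) under 0.05, 1006 genes (10.3%) were higher and 1386 (14.2%) lower in members. DESeq2 called 884 and 1081. All 20 named genes were called higher, with a median log2 fold change of 2.61. Of the 449 genes higher at 1 week, without those of the rule, 421 were tested, of which 248 (58.9%) were called higher and 6 lower. Of the 1247 lower genes 1156 were tested, of which 522 (45.2%) were called lower and 6 higher. The members were deeper than the other barcodes at this time too (median 14054 UMIs against 6863 in PSNL, 14810 against 8208 in crush). Gm42418 took 2.17% of their UMIs against 1.97% in PSNL and 1.30% against 1.62% in crush.

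Fn1 was at 5012, 4428, 3335 and 1886 CPM in the members of PSNL F1, F2, M1 and M2, against 105, 185, 47.4 and 48.6 CPM in their other barcodes. In crush F1, F2 and M1 it was at 4996, 5644 and 1935 CPM in members, against 573, 31.4 and 56.5 CPM. No value of the members overlapped with one of the others, and the log2 fold change of Fn1 was 4.89 (SE 0.366, edgeR adjusted p = 1.71e-07). Lyz1 was at 5707, 3341, 1840 and 1517 CPM in PSNL members, against 78.7, 182, 49.9 and 113 CPM, and at 2947, 4158 and 475 CPM in crush members, against 262, 79.8 and 94.6 CPM. Its log2 fold change was 4.78 (SE 0.329, edgeR adjusted p = 8.24e-08). Lyz1 was thus well above its 1-week levels in 6 of the 7 members' samples, but the 2 times were run as separate libraries whose headers name different Cell Ranger versions, and time and library cannot be told apart.

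Cd226 was at 540, 220, 575 and 184 CPM in PSNL members at 15 weeks, against 25.6, 54.5, 12.1 and 22.3 CPM in the other barcodes, and at 385, 414 and 246 CPM in crush members, against 81.4, 24.0 and 5.25 CPM. Its log2 fold change was 3.49 (SE 0.431, edgeR adjusted p = 2.34e-05). Lpl was at 1763, 1654, 2590 and 2609 CPM in PSNL members, against 80.1, 187, 81.4 and 153 CPM, and at 1168, 1054 and 1485 CPM in crush members, against 236, 67.1 and 935 CPM. Its log2 fold change was 3.76 (SE 0.330, edgeR adjusted p = 7.79e-07), and crush M1 had the smallest gap. The other 16 named genes were higher by a log2 of 1.73 (Egr2) to 4.45 (Cd2), with Rras2 at 3.48, Mmp19 at 3.04, Dok2 at 2.60, Socs6 at 2.68 and Capg at 1.97. Mmp19 had no UMI in the 6 members of crush F2 or the 6 of crush M1, samples that the test left out for their number of members.

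**Figure D2:**
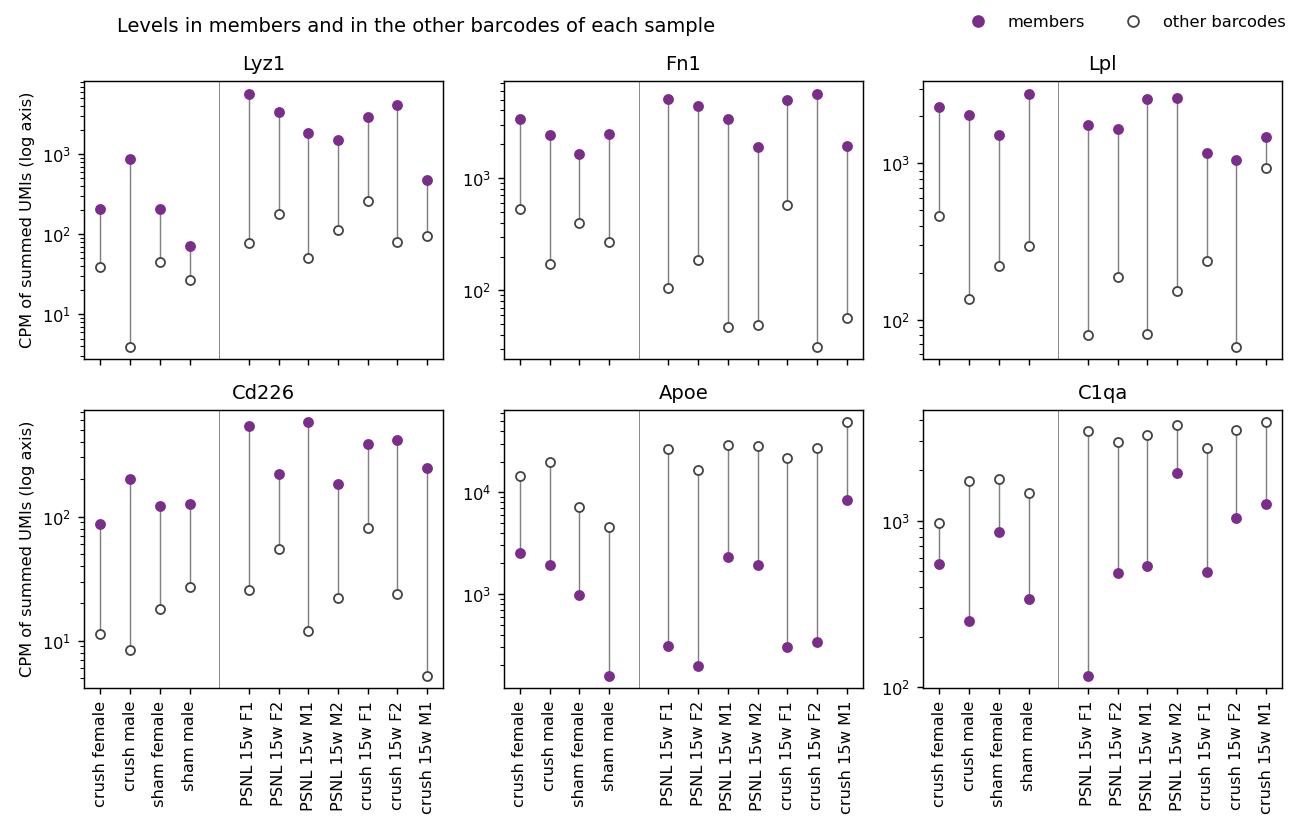
Levels of 6 genes (y axis, CPM of summed UMIs, log axis) in the members (filled) and the other barcodes (open) of each hashtag sample, 1 week left and 15 weeks right of the line in each panel, with no PSNL sample at 1 week since these held 0 and 1 member. Lyz1, Fn1, Lpl and Cd226 lie higher in members of all 11 samples, and Apoe and C1qa lie lower.

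**Figure D3:**
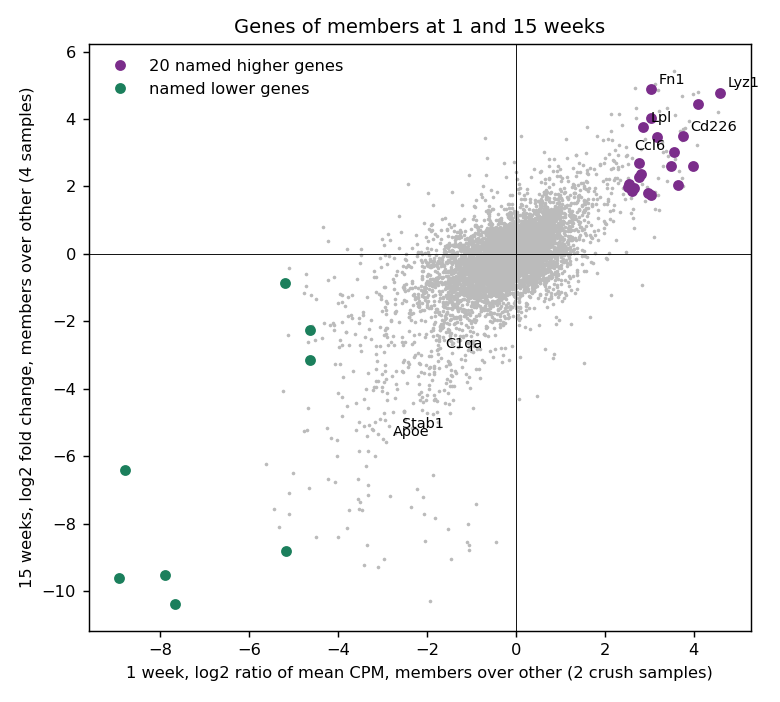
Each gene's log2 ratio of mean CPM in members over other barcodes of the 2 crush samples at 1 week (x axis, description) against its log2 fold change at 15 weeks from edgeR over 4 samples (y axis). The 20 named higher genes (purple) all lie above 0 on both axes and the 8 named lower genes that were tested (green) all lie below 0.

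Genes of resident macrophages were low in members, apart from Mrc1 at 1 week, and the rule itself bears on this. Members were held to 2 UMIs of Cd163, Lyve1 and Cbr2, while the other barcodes of the 15-week libraries kept 305 (PSNL) and 293 (crush) barcodes with at least 3, so lower levels of genes that go with these 3 were partly fixed by the choice and are given as a description, also where the genes stand in another list (Apoe and C1qa among them). Of 19 tested genes of epineurial resident macrophages, leaving out the genes of the rule, 17 were lower and none higher in members at 15 weeks, with a median log2 fold change of -2.64 (-2.47 with the 2 genes without a UMI in members at the bound that 3 counts allow), against -0.12 over all genes tested, of which 14.2% were lower. At 1 week 8 of 13 were lower and 1, Mrc1, was higher, where 15.6% and 5.64% of all genes were. Stab1, a scavenger receptor, was lower by a log2 fold change of -5.32, Gas6, which bridges dying cells to phagocytes, by -4.27 and Folr2, a folate receptor, by -3.52. Mrc1, the mannose receptor, was at 490 and 458 CPM in members of the crush female and male at 1 week, against 224 and 143 CPM in other barcodes, and called higher there. At 15 weeks Mrc1 was lower in members, at 647, 619, 678 and 658 CPM in PSNL F1, F2, M1 and crush F1, against 1491, 1502, 1518 and 1080 CPM in the other barcodes (log2 fold change -1.04). In the sham samples, Mrc1 was at 245 and 555 CPM in members, against 1362 and 787 CPM in the others.

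Members were also set beside resident barcodes, those with at least 3 UMIs of Cd163, Lyve1 and Cbr2 together (15 in each crush sample). By the same description 12.3% of 8343 genes were higher and 19.0% lower in members than in resident barcodes. Fn1 was at 3372 and 2418 CPM in members, against 159 and 357 CPM in resident barcodes, and Lpl at 2296 and 2034 CPM, against 169 and 326 CPM. Apoe, the apolipoprotein that carries cholesterol out of cells, was at 2545 and 1952 CPM in members, against 27911 and 14603 CPM in resident barcodes, and C1qa, a chain of complement C1q, at 552 and 250 CPM, against 2911 and 3049 CPM. Lyz1 had no UMI in these resident barcodes. Against barcodes with at least 2 UMIs of Cd209a, a lectin of dendritic cells and some macrophages, 8.53% of 7997 genes were higher and 16.0% lower in members. Flt3 was at 4.30 and 0 CPM in members, against 199 and 201 CPM in these Cd209a barcodes, and Fn1 at 3372 and 2418 CPM, against 39.9 and 25.7 CPM.

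Most genes of endoneurial, microglia-like macrophages, of complement and of lipid handling were lower in members at 15 weeks, and in the 1-week description 8 of 9, 7 of 9 and 7 of 16 of them were. Over all genes 14.2% were lower at 15 weeks and 15.6% at 1 week. Of 9 endoneurial genes tested at 15 weeks 8 were lower and 1, Fcrls, was higher (median log2 fold change -4.07, or -4.01 with the gene without a UMI in members at its bound). Cx3cr1, the fractalkine receptor, was at 79.5 and 95.0 CPM in crush members at 1 week, against 326 and 419 CPM in other barcodes, and its log2 fold change at 15 weeks was -4.39. Fcrls, an Fc receptor-like gene of microglia, was at 612 and 851 CPM in crush members at 1 week, against 158 and 178 CPM in other barcodes, and its log2 fold change at 15 weeks was 1.27. Of 9 complement genes 8 were lower and 1, Cfp, higher. Cfp, which encodes properdin, the protein that steadies the alternative pathway convertase, was at 554 and 626 CPM in crush members, against 146 and 115 CPM, with a log2 fold change of 2.78 at 15 weeks (SE 0.181, edgeR adjusted p = 5.23e-08). C1qa was at 552 and 250 CPM in crush members, against 966 and 1723 CPM. Its log2 fold change at 15 weeks was -2.96 (SE 0.267), given as a description since the rule bears on it.

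Of 16 genes of phagocytosis and lipid handling 12 were lower and 3 higher at 15 weeks (median log2 fold change -1.73), the higher ones being Lpl, the cholesterol exporter Abcg1 and the lipid droplet protein Plin2. Apoe was at 310, 197, 2330 and 1914 CPM in members of PSNL F1, F2, M1 and M2 at 15 weeks, against 26750, 16557, 29121 and 28612 CPM in their other barcodes. In crush F1, F2 and M1 it was at 299, 339 and 8384 CPM in members, against 21455, 27426 and 48446 CPM. Members of the 3 males had more Apoe than those of the 4 females, and members of every sample had less than the others. The log2 fold change of Apoe was -5.57 (SE 0.365), given as a description since the rule bears on it. Trem2, a lipid receptor of macrophages, was lower by a log2 fold change of -4.01 at 15 weeks. Of 10 tested genes fixed as a list of Arg1 Spp1 macrophages, 5 were higher at 15 weeks (Adam8, Vegfa, Hmox1, Pkm and Lgals3, by a log2 fold change of 0.84 to 2.59) and 3 lower (Gpnmb, Spp1 and Fabp5, at -5.53, -4.82 and -2.08), with a median of 0.45. At 1 week 3 were higher (Adam8, Hmox1 and Pkm) and the same 3 lower, so this list did not move as 1 group. Over all genes 10.3% were higher and 14.2% lower at 15 weeks, and 5.64% and 15.6% at 1 week. Spp1, which encodes osteopontin, was at 94.5 and 25.9 CPM in crush members at 1 week, against 1385 and 461 CPM in other barcodes.

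Some monocyte, MHC class II and immediate early genes were higher in members. Of 14 monocyte genes tested at 15 weeks 8 were higher and none lower (median log2 fold change 0.96), among them S100a6 (2.82), S100a4 (2.61), Ahnak (1.95) and Ccr2 (1.41). At 1 week 3 of 18 were higher in members and 6 lower, Ly6c2 among the lower. Over all genes 10.3% were higher and 14.2% lower at 15 weeks, and 5.64% and 15.6% at 1 week. Ccr2, the receptor by which monocytes leave the marrow, was at 769 and 881 CPM in crush members at 1 week, against 479 and 624 CPM in other barcodes. Of 10 MHC class II genes 5 were higher and none lower at 15 weeks (median 0.28), H2-DMb2 with the largest log2 fold change (2.84), H2-DMa (1.18), H2-DMb1 (0.94), Cd74 (0.51) and H2-Ab1 (0.39), where 10.3% of all genes were higher. At 1 week 1 was higher (H2-DMb1) and 3 lower (H2-Oa, H2-Ob and Ciita), against 5.64% and 15.6% of all genes, so the list as a whole was not higher in members at that time, and Cd74 was at 9700 and 10752 CPM in crush members, against 13949 and 14796 CPM. Of 12 immediate early and heat shock genes, which can be induced by cell dissociation, 6 were higher and none lower at 15 weeks (median log2 fold change 0.63), and 3 were higher at 1 week (Dusp1, Junb and Jund). Their part in the other results was not tested.

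Of the CC chemokines Ccl6 and Ccl9 were higher in members at both times. Ccl6 was at 2706 and 2500 CPM in members of the crush female and male at 1 week, against 501 and 414 CPM in other barcodes, and at 3434 and 2180 CPM in sham members, against 804 and 617 CPM. Its log2 fold change at 15 weeks was 2.92 (SE 0.159, edgeR adjusted p = 1.47e-08). Ccl9 was at 945 and 1287 CPM in crush members, against 220 and 180 CPM, with a log2 fold change of 2.90 at 15 weeks (SE 0.189). Of 11 CC chemokines tested at 15 weeks 3 were higher (Ccl2, Ccl6 and Ccl9) and 5 lower, where 10.3% and 14.2% of all genes were. Among the lower were Ccl3 (log2 fold change -3.09) and Ccl4 (-2.82). Ccl7, which lies beside Ccl2 in the genome, was at 30.1 and 47.5 CPM in crush members at 1 week, against 1.70 and 4.85 CPM, and its log2 fold change at 15 weeks was 1.29 (edgeR adjusted p = 0.0623).

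Genes of alternative activation, the programme of which Retnla is a textbook member, did not move as 1 group. Of 15 tested at 15 weeks 2 were higher, Klf4 (log2 fold change 1.95) and Irf4 (1.80), both transcription factors that act with STAT6, and 8 were lower (median -1.05). Over all genes 10.3% were higher and 14.2% lower, so the count of higher genes in this list was near that of all genes. At 1 week 5 of 19 were higher (Cish, Klf4, Ccl24, Mrc1 and Irf4) and 6 lower, where 5.64% and 15.6% of all genes were. Chil3, a chitinase-like protein, had no UMI in crush members, against 14.8 and 30.6 CPM in other barcodes. Of the 14 matrix genes 3 were higher at 15 weeks (Fn1, Mmp19 and Ecm1) and 3 lower (Mmp9, Mmp14 and Timp2). Of 10 interferon-stimulated genes none was higher and 2 were lower, and of 9 inflammatory cytokine genes none was higher and 4 were lower, Il1b among them (log2 fold change -2.21). Cell cycle genes gave 1 higher and 1 lower of 9. The counts for interferon-stimulated and cell cycle genes are close to the shares of all genes called and are no result about these lists.

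**Figure D4:**
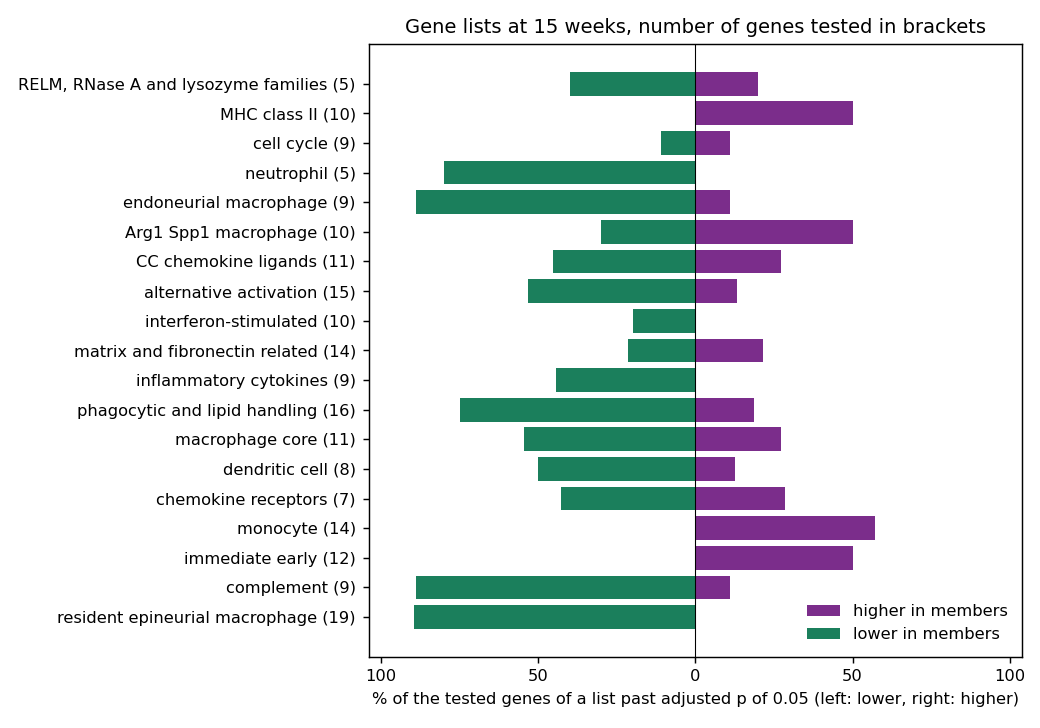
Share of the tested genes of each list (x axis, %) that passed an adjusted p of 0.05 in members against other barcodes at 15 weeks, lower to the left and higher to the right, with the number of genes tested in brackets. Lists of resident and endoneurial macrophages and complement reach furthest to the left (17 of 19, 8 of 9 and 8 of 9 genes), and monocyte, MHC class II and immediate early genes have none on the left. How far lists that go with Cd163, Lyve1 and Cbr2 reach to the left was partly fixed by the rule. Over all genes tested 14.2% were lower and 10.3% higher.

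The genes with the largest rises at 15 weeks, among those with at least 50 CPM in members, were Thsd4, Sntg1, Fn1, Kcnq1, Lyz1, Akr1c18, Cd2, Cavin1, Spink2 and 9530059O14Rik, with log2 fold changes of 4.22 to 5.09. Kcnq1, which encodes a potassium channel, was at 540, 286, 309 and 243 CPM in members of PSNL F1, F2, M1 and crush F1, against 7.32, 14.4, 3.03 and 28.5 CPM in other barcodes (log2 fold change 4.81, SE 0.420). At 1 week Kcnq1 was at 6.44 and 8.64 CPM in crush members, against 1.70 and 0.303 CPM. Cavin1, a coat protein of caveolae, was at 267, 178, 48.4 and 234 CPM in these 15-week members, against 7.78, 11.8, 3.03 and 12.97 CPM, and at 85.9 and 43.2 CPM in crush members at 1 week, against 15.3 and 2.73 CPM. Spink2, a protease inhibitor, was at 32.2 and 38.9 CPM in crush members at 1 week, against 2.27 and 2.73 CPM.

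Members of crush and sham nerves were compared with each other over the 4 samples with at least 3 members, since sham had 3 and 7. Of 2368 genes 1 (0.0422%) was higher and none lower in crush (edgeR, 53 and 23 at an unadjusted p under 0.05, and none with DESeq2). The gene was Ccl4, a chemokine that activated macrophages release, at 576 and 527 CPM in crush members and at 0 and 47.6 CPM in sham members (log2 fold change 3.83, SE 0.571, edgeR adjusted p = 0.0358). The call was lost with DESeq2 (adjusted p = 0.103), with both other ways to assign hashtags and without the barcodes of the highest doublet scores. Over the other barcodes Ccl4 was at 407 and 297 CPM in crush and 777 and 226 CPM in sham. Fn1 was at 3372 and 2418 CPM in crush members and at 1635 and 2457 CPM in sham members, which overlap, and no named higher gene was called. Counts of called genes without 1 of these samples went up to 41, so this comparison depends on single samples.

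Over whole samples, with all barcodes of a hashtag sample summed, transcripts that set the members apart differed in how they followed surgery. In such sums, fewer cells of a type and less RNA per cell cannot be told apart. Retnla, which the rule used, was at 10.9 and 27.9 CPM in PSNL (female and male), 3205 and 776 CPM in crush and 4891 and 1347 CPM in sham. Cd226, which it did not use, was at 1.25 and 1.27 CPM in PSNL (3 and 6 UMIs), 26.7 and 20.6 CPM in crush and 27.8 and 46.2 CPM in sham. Both PSNL samples lay more than 10-fold below every other sample. In edgeR's quasi-likelihood test over 9825 genes the log2 fold change of Cd226 was -4.96 for PSNL against sham (SE 0.434, adjusted p = 0.00143) and -4.14 for PSNL against crush (SE 0.380, adjusted p = 0.00135). Over all 13 settings the log2 fold changes of Cd226 were -5.18 to -4.44 against sham and -4.32 to -3.58 against crush. Crush against sham gave -0.82 (edgeR adjusted p = 0.445). Cd226 was named for its level in members of the crush female and male, so its contrast with crush was not independent of that choice. Within the first library the PSNL samples stood at 1.25 and 1.27 CPM and the sham female at 27.8 CPM.

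For PSNL against sham 233 genes (2.37%) were higher and 165 (1.68%) lower, for PSNL against crush 657 (6.69%) and 467 (4.75%), and for crush against sham 10 (0.102%) and 10 (0.102%). Of the 20 named genes, 2 were higher (Ccl2 and F10) and 2 lower (Cd226 and Pdlim1) in PSNL against sham. In PSNL against crush 5 were higher (Capg, Ccl2, F10, Mmp19 and Plaur) and 3 lower (Cd226, Lyz1 and Rras2), and in crush against sham none was called. Both PSNL contrasts share the PSNL samples. Of the 20, Cd226 was the 1 gene called lower in both. The median log2 fold change of the 20 was -0.264 for PSNL against sham and 0.286 for PSNL against crush, so they did not follow Cd226 as a group. Fn1 was at 1595 and 2455 CPM in PSNL, 1096 and 309 CPM in crush and 508 and 703 CPM in sham, so that Fn1 was highest where members were fewest. Its log2 fold changes were 1.69 for PSNL against sham (edgeR adjusted p = 0.116) and 1.54 for PSNL against crush (edgeR adjusted p = 0.0899), and neither was called.

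Ear2, also used by the rule, was at 8.36 and 11.4 CPM in PSNL, 170 and 30.8 CPM in crush and 31.7 and 94.0 CPM in sham. Lyz1 was at 31.8 and 20.1 CPM in PSNL, 72.4 and 58.9 CPM in crush and 59.5 and 35.1 CPM in sham. Its log2 fold change was -1.33 for PSNL against crush (SE 0.303, edgeR adjusted p = 0.0286) and -0.84 for PSNL against sham (adjusted p = 0.261). The call of Lyz1 against crush was lost without the PSNL female (edgeR adjusted p = 0.0654) and without the PSNL male (0.245). Lpl was at 430 and 732 CPM in PSNL, 823 and 253 CPM in crush and 341 and 789 CPM in sham, and all 3 groups overlapped.

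**Figure D5:**
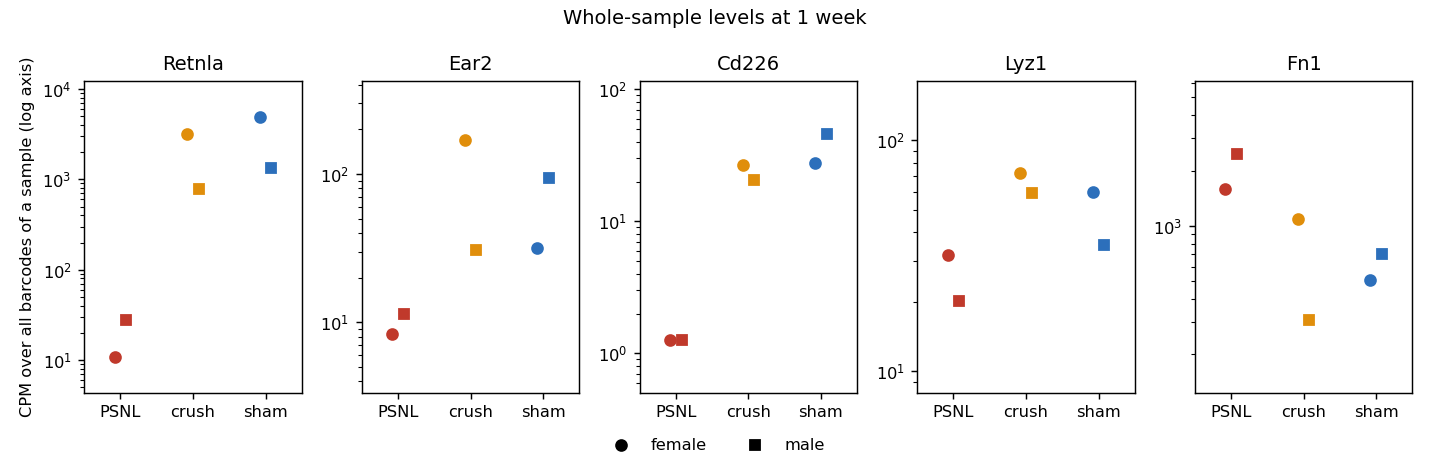
Levels of 5 genes over all barcodes of each 1-week hashtag sample (y axis, CPM, log axis), with PSNL, crush and sham from left to right and circles for females, squares for males. Retnla, Ear2 and Cd226 are lowest in both PSNL samples (Cd226 at 1.25 and 1.27 CPM, against 20.6 to 46.2 CPM elsewhere), Lyz1 is lowest there too, and Fn1 is highest there (1595 and 2455 CPM).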

How the data were processed

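Raw UMI counts per gene and barcode were used as the authors deposited them, with hashtag counts in the same matrices. The authors made them with Cell Ranger (the processing notes name 6.0.0, mouse build GRCm38 and Seurat 5.1.0), without normalization. No total, ratio or fold of the authors was used. The authors' assignment of barcodes to hashtags was not used here: a barcode was given to a hashtag when its count was above the valley between the low and high modes of that hashtag, and barcodes above the valley of several or of none entered no comparison of samples. Xist was at 0 to 1.39 CPM in the samples labelled male and Ddx3y at 0 to 1.35 CPM in those labelled female. Totals per 1-week hashtag sample were 246983 to 5042525 UMIs. Doublets were not removed, and an alternative dropped, in each library, the 6% of barcodes that Scrublet scored highest.

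The members and the gene lists were chosen with earlier results of these data known. Named genes were Retnla, Ear2, Lyz1 and Fn1, the genes of the rule, the 20 highest and 10 lowest ratios among non-overlapping genes with a mean of at least 100 CPM in members or other barcodes, the 10 largest rises and falls of each fit among called genes of at least 50 CPM, and up to 4 genes of each list. Shares were compared with a two-sided exact permutation test over samples and given with exact Clopper-Pearson intervals. Summed counts were tested with edgeR 4.0.16 (TMM, filterByExpr, quasi-likelihood) in R 4.3.3, and DESeq2 1.42.0 was an alternative. Whole-sample fits took all 6 samples. The comparison of crush with sham members had been planned for samples with at least 10 members and could not be fitted so, since sham had 3 and 7, and a minimum of 3 was chosen after seeing the data. Other alternatives were hashtags by HTODemux of Seurat 5.3.0, the highest hashtag at least 3 times the second, the rule at 3 or 10 UMIs, no limit on Cd163, Lyve1 and Cbr2, thinned barcodes, RLE size factors, no filter, sex as a term and leaving out each sample. Scripts were tested on simulated data.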

Additional observations from a re-analysis of the deposited data

Results flagged for a closer look

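A hashtag that no label assigns to a sample had 110 UMIs in the crush library at 15 weeks, a signal in data that no comparison used. The labelled hashtags of that library had 99996 to 276334 UMIs, and the unlabelled one was the highest hashtag of 0 barcodes. In 7 groups of 4 samples no sample stood apart from the others by Dixon's criterion.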

How the results depend on the processing

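The lower share of members in PSNL than in sham or crush kept its sign under every alternative run over both libraries, but no test with 2 samples a group can pass the threshold. The difference of PSNL from sham, -5.63 percentage points, was -3.89 with the rule at 10 UMIs and -1.56 with thinned barcodes, where the PSNL samples and the sham female of their library all had 0 members. That of crush from sham, 1.46 points, ranged from -2.54 (without the crush female) to 5.46 (without the crush male). Thinning left 2 members in the PSNL and sham library and 39 in the crush and sham library, and 10 were left in the PSNL and sham library without neutrophil barcodes. The number of called genes over whole samples depended on single samples: leaving out 1 gave 0 to 278 for crush against sham (20 with all), 66 to 695 for PSNL against sham (398) and 202 to 1294 for PSNL against crush (1124). With no filter on low counts these were 475, 1222 and 1968. For crush against sham DESeq2 gave 99, sex as a term 13 and HTODemux 59, and for PSNL against crush sex as a term gave 706. Between crush and sham members 1 gene was called, against 6 to 41 with 1 sample left out, 13 with no filter, 7 with sex as a term, 6 with the rule at 10 UMIs, 2 with no limit on Cd163, Lyve1 and Cbr2, and 0 with DESeq2, HTODemux, the highest hashtag at least 3 times the second or without the highest Scrublet scores. The cause was not tested for any of these. At 15 weeks and in the 1-week description every count of genes stayed within 1.5 times of its value under all alternatives run. Sex as a term adjusts for 1 difference between females and males shared by all surgeries, and its counts stand above. The fit at 15 weeks was paired within hashtag samples.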

Other observations

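At 15 weeks the share of members was higher in the female than in the male samples of both surgeries pooled, 3.35% over 4 samples and 1.32% over 3, a difference of 2.03 percentage points (two-sided exact permutation p = 0.0857). The comparison was chosen after the values had been seen. At 1 week the female was higher in crush (11.1%, against 3.15% in the male) and not in sham (4.76%, against 6.60% in the male).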
